A study of Mus musculus with 16 samples.

Results

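The epidermal differentiation complex is a cluster of genes on mouse chromosome 3 that encode the proteins of the cornified envelope and their S100 neighbours. The genes described here were all those of the count tables whose mouse symbol begins with Sprr or Lce and a number, or reads S100a and a number, together with Ivl, Lor, Flg, Flg2, Hrnr, Rptn, Tchh, Tchhl1 and Crnn. They came to 60 of 43432 genes, and all 60 lie on chromosome 3 between 90511034 and 93564643 (GRCm38), a span of 3053.6 kb. By family they were 9 single structural genes, 4 genes of the Sprr1, Sprr3 and Sprr4 kind, 13 Sprr2 genes, 14 Lce1 genes, 7 Lce3 and Lce6a genes and 13 S100a genes.

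RNA was sequenced from medullary thymic epithelial cells (mTEC) of C57BL6.Aire-CreERT2.Ai14 mice, in which tamoxifen lets a Cre recombinase driven by the Aire promoter switch on a red fluorescent protein (RFP) for good. All 4 populations came from mice of both sexes aged 5 to 6 weeks that carried these alleles and had received 2 mg tamoxifen, 7 days before the sort. Live cells without CD45 and with EPCAM were sorted on surface MHC class II and RFP into RFP+ MHCIIlo, RFP- MHCIIlo, RFP+ MHCIIhi and RFP- MHCIIhi, each with 4 replicates of 12 pooled thymi. The label marks cells that had Aire promoter activity around the pulse, and their descendants, so that RFP- cells may have used Aire before or after it. No group went without tamoxifen.

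In skin, keratinocytes that leave the basal layer build a cornified envelope under the cell membrane. Involucrin is laid down early as a scaffold, loricrin and small proline-rich (SPRR) proteins are cross-linked onto it by transglutaminases, and late cornified envelope (LCE) proteins are added in the outermost living layers. Filaggrin and its fused-type S100 relatives bundle keratin filaments, while the small calcium-binding S100A proteins serve in many cell types. In the thymic medulla, cells late in the mTEC life course are known to take on features of cornified epithelium, and Hassall's corpuscles hold such cells.

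The stretches around the transcription start of 6 members are shown because they set the label-linked structural genes (Ivl, Lor, Sprr2d) beside members with a different pattern (Sprr2i, Lce3b, S100a8). Each runs 5′ to 3′ along the gene's strand, from 250 bases before to 50 bases after the RefSeq start on GRCm38.p6. Capitals mark matches to 5 motifs, searched on both strands: the TATA box TATAAA, the AP-1 motif TGANTCA, the KLF motif CCACCC, the grainyhead-like motif AACNGGTT and the C/EBP motif TTGCNNAA. No matches overlap in these windows.
Ivl, chr3:92573686-92573985, minus strand: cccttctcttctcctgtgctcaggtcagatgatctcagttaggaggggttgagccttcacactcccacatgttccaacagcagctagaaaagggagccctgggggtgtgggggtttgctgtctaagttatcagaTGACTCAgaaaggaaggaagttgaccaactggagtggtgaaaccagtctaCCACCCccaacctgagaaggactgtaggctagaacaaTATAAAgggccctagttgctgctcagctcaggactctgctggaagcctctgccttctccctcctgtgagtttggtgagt
Lor, chr3:92083093-92083392, minus strand: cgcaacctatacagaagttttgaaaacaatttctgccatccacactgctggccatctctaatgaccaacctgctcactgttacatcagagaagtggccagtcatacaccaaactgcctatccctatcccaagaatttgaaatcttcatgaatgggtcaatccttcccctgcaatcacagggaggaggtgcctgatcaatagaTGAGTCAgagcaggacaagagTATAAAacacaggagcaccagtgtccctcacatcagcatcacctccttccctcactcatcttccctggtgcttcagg
Sprr2d, chr3:92338890-92339189, plus strand: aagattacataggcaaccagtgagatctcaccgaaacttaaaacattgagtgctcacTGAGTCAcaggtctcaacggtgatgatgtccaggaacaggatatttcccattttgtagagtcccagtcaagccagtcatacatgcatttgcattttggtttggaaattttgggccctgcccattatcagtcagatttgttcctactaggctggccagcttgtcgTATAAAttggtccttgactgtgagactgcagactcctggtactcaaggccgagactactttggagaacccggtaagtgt
Sprr2i, chr3:92407741-92408040, plus strand: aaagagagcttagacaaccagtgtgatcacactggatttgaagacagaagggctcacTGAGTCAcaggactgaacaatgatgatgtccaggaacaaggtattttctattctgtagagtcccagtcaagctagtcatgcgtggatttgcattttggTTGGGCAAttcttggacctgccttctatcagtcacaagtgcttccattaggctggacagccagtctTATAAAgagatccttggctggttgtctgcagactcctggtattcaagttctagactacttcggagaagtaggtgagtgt
Lce3b, chr3:92932729-92933028, plus strand: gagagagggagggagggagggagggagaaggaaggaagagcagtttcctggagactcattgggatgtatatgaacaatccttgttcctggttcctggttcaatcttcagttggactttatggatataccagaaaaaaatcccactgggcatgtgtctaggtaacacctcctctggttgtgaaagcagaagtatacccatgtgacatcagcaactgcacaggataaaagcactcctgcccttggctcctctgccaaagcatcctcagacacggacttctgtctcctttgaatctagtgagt
S100a8, chr3:90668821-90669120, plus strand: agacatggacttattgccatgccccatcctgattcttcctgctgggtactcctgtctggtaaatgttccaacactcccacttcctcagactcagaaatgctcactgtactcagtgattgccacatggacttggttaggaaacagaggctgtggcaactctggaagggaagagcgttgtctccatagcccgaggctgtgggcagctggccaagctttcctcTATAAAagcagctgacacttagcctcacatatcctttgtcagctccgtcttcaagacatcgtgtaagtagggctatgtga

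A RefSeq window was found for 53 of the 60 members; S100a2, S100a14, S100a10, Lce1f, Sprr2g, Sprr2c-ps and Sprr2j-ps had none. The C/EBP match in Sprr2i is on the reverse strand. The TATA box lay 29 to 24 bases before the start in Ivl, Sprr2d and Sprr2i, 27 to 22 bases before it in Lor and 30 to 25 bases before it in S100a8. The S100a8 start used by RefSeq is 93 bases from the GENCODE start. A TATA box between 40 and 20 bases before the start was present in 34.0% of the members' windows, against 2.2% of 27025 windows of all genes. TGANTCA was present in 32.1% of the members' windows and in 7.9% of all windows. It was unevenly spread over the families: 7 of 9 single structural genes and 7 of 10 Sprr2 genes held it, as did 2 of 4 genes of the Sprr1, Sprr3 and Sprr4 kind and 1 of 10 S100a genes. None of the 13 Lce1 windows and none of the 7 Lce3 and Lce6a windows held it. For the other motifs the shares of the members' windows and of all windows were 30.2% against 30.8% for CCACCC, 3.8% against 2.0% for AACNGGTT and 11.3% against 10.7% for TTGCNNAA. The Sprr2d and Sprr2i windows were identical at 234 of 299 aligned bases (78.3%), with TGANTCA at 193 to 187 bases before the start in both. A match is a run of letters and not a shown binding site, and families that arose by duplication share their letters.

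Library totals were 7929533 to 19457905 reads, and the RFP+ MHCIIlo libraries came from 19400 to 20500 cells each, against 80500 to 164000 in the other populations. Epcam averaged 594, 467, 520 and 343 CPM (counts-per-million, scaled by TMM) in RFP+ MHCIIlo, RFP- MHCIIlo, RFP+ MHCIIhi and RFP- MHCIIhi. Aire averaged 50.8, 37.9, 587 and 979 CPM in the same order, and the gate marker H2-Aa 961, 1320, 5380 and 4700 CPM, which followed the MHCII gates. Krt5 averaged 470, 1340, 269 and 189 CPM and Krt14 97.5, 437, 116 and 103 CPM. Differences below are log2 values from edgeR's quasi-likelihood test with the standard error (SE), called at a Benjamini-Hochberg adjusted p under 0.05 over 19617 tested genes. Of the 9 medullary epithelial genes listed, 4 were higher and 4 lower in RFP+ MHCIIlo against RFP- MHCIIlo (28.9% and 22.7% of all genes). In RFP+ MHCIIhi against RFP- MHCIIhi 4 were higher and none lower (23.8% and 21.2%). The replicates are separate pools. The p-values rest on a spread between pools that was estimated over the libraries of all populations together, not over the compared populations alone. Fitted alone, RFP+ MHCIIlo and RFP- MHCIIlo gave 8101 called genes of 16610 tested, against 10129 of 19617 in the fit of all libraries. RFP+ MHCIIhi and RFP- MHCIIhi alone gave 10995 of 19093, against 8830 of 19617. Counts of calls in MHCIIlo and MHCIIhi thus do not rest on each gate's own spread.

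**Figure D1:**
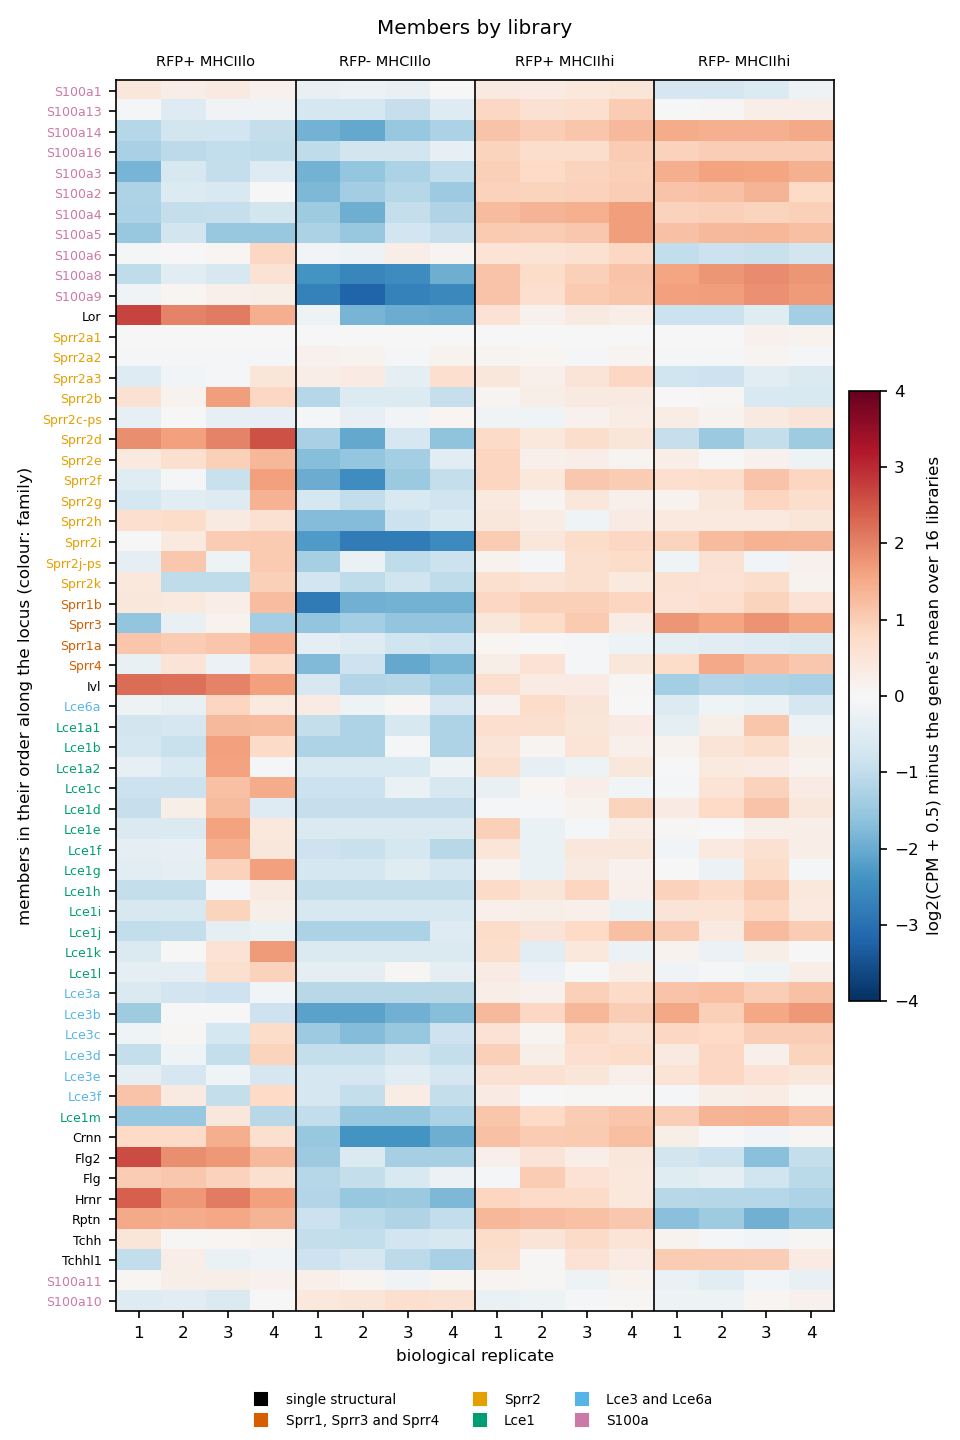
Level of the 60 members (rows, in their order along the locus, names coloured by family) in the 16 libraries (columns, 4 replicates per population), as log2(CPM + 0.5) minus the gene's mean over all libraries. The structural genes Lor, Ivl, Flg2, Hrnr and Rptn are red in RFP+ MHCIIlo, most rows are blue in RFP- MHCIIlo, and the Lce1 rows are red in RFP+ MHCIIlo replicates 3 and 4 but not in 1 and 2.

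Summed over the 60 members, the level was 2080 ± 125 CPM in the RFP+ MHCIIlo libraries, 949 ± 52.9 CPM in the RFP- MHCIIlo libraries, 2490 ± 129 CPM in the RFP+ MHCIIhi libraries and 2020 ± 49.8 CPM in the RFP- MHCIIhi libraries (SD, n = 4 each). By mean CPM, RFP- MHCIIlo was the lowest of the 4 populations for 47 of the 60 members. The highest population was RFP+ MHCIIlo for 23 members, RFP- MHCIIlo for 2, RFP+ MHCIIhi for 12 and RFP- MHCIIhi for 23. The same counts over all genes were not made, so how far the members depart from other genes is not known. These counts include members with too few reads for a test. Sprr2a1, without reads outside RFP- MHCIIhi, was tied for the lowest and counted under RFP+ MHCIIlo. In these sorted populations a smaller number of expressing cells and less RNA per expressing cell cannot be told apart.

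The filter on low counts was passed by 50 members, which were tested. The 10 that were not are Sprr2a1, Sprr2a2, Sprr2c-ps, Lce1a2, Lce1e, Lce1g, Lce1i, Lce1k, Lce1l and Lce3e, each with 2 to 89 reads over the 16 libraries. Several low members passed through the populations in which they are high, so a count among the tested says nothing of the rest. In RFP+ MHCIIlo against RFP- MHCIIlo, 41 members were higher and 2 lower, where 28.9% of all tested genes were called higher and 22.7% lower. The members' median difference was 2.92, or 2.47 with the genes at 0 reads in RFP- MHCIIlo set to their bound, against 0.07 for all genes. In RFP+ MHCIIhi against RFP- MHCIIhi, 17 members were higher and 6 lower (23.8% and 21.2% of all genes), with a median of 0.02 against -0.02 for all genes.

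Between the gates, 7 members were higher and 19 lower in RFP+ MHCIIlo against RFP+ MHCIIhi (27.5% and 28.1% of all genes), with a median of -0.21. In RFP- MHCIIlo against RFP- MHCIIhi 6 were higher and 34 lower (33.5% and 35.6% of all genes), with a median of -2.65. The RFP difference was larger in MHCIIlo than in MHCIIhi for 34 members and smaller for 4 (17.5% and 16.6% of all genes), with a median of 2.09. These comparisons share libraries, so their counts are given side by side only. Scaling to library totals alone moved the median of all genes by 0.15 in RFP+ MHCIIlo against RFP- MHCIIlo, -0.29 in RFP- MHCIIlo against RFP- MHCIIhi and 0.22 in the difference of RFP differences. The share of called genes that were higher then went to 68.8% instead of 56%, to 32.2% instead of 48.4% and to 72% instead of 51.4%.

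**Figure D2:**
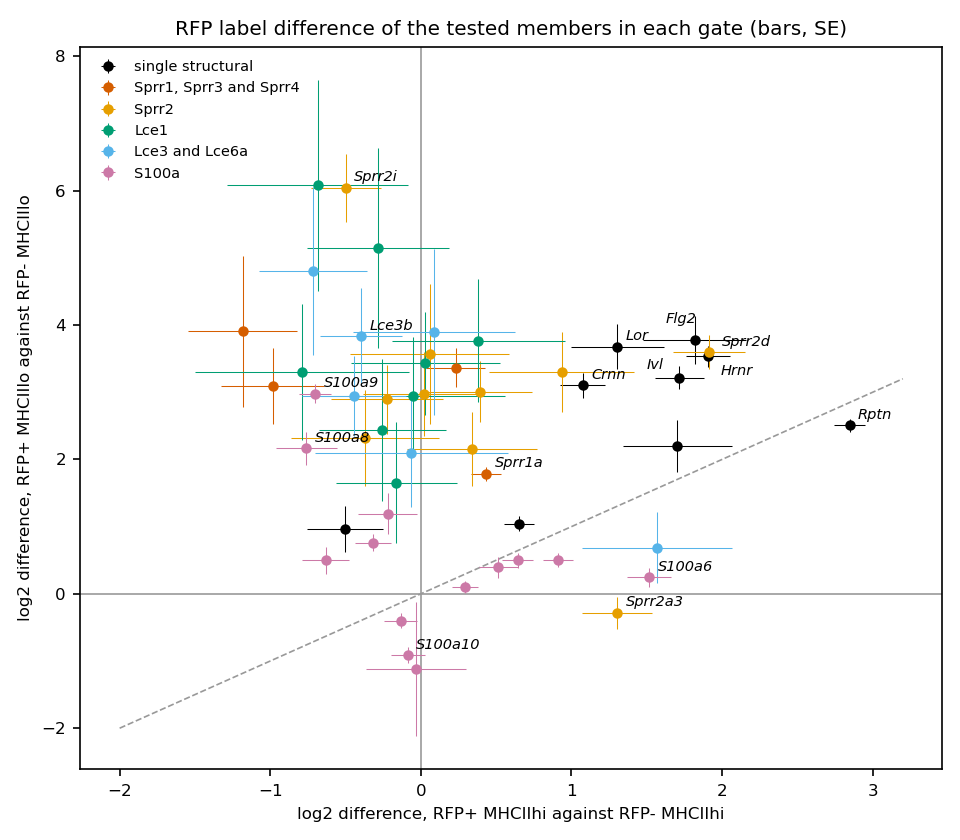
Log2 difference of RFP+ against RFP- cells in the MHCIIlo gate (vertical) and in the MHCIIhi gate (horizontal) for the 50 tested members, coloured by family, with SE bars and the line of equality dashed. Ivl, Lor, Flg2, Hrnr, Crnn and Sprr2d lie high and to the right, most Lce, Sprr2 and Sprr3 or Sprr4 points lie high near or left of 0, and S100a6 and Sprr2a3 lie to the right near 0; the differences of Lce1d, Lce1h and Lce3a are against a population with no reads and are not bounds.

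The single structural genes were mostly higher with the RFP label in both gates. Their summed level was 739 ± 77.6 CPM in the RFP+ MHCIIlo libraries and 123 ± 13.4 CPM in the RFP- MHCIIlo libraries, and 549 ± 38.1 CPM in the RFP+ MHCIIhi libraries and 135 ± 9.36 CPM in the RFP- MHCIIhi libraries (SD, n = 4 each). All 9 were higher in RFP+ MHCIIlo than in RFP- MHCIIlo (median 3.10), and 8 of 9 were higher in RFP+ MHCIIhi than in RFP- MHCIIhi (median 1.70). Of all genes, 28.9% and 23.8% were called higher in these comparisons. The exception in MHCIIhi was Tchhl1, with a difference of -0.50 ± 0.25 (SE, adjusted p = 0.11), which was called without RFP- MHCIIhi replicate 4 (-0.67).

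Ivl encodes involucrin, the early scaffold of the envelope. It had 60, 58.4, 50 and 39.7 CPM in the RFP+ MHCIIlo libraries, against 7.65, 5.18, 5.29 and 4.39 CPM in the RFP- MHCIIlo libraries. In MHCIIhi it had 19.6, 15.7, 15.6 and 12.6 CPM in RFP+ cells, against 4.5, 5.23, 4.91 and 4.71 CPM in RFP- cells. Every labelled library was above every unlabelled library of its gate, and the RFP+ MHCIIlo libraries were above all others. The label difference was 3.22 ± 0.17 in MHCIIlo (SE, edgeR adjusted p = 1.5e-13) and 1.72 ± 0.16 in MHCIIhi (adjusted p = 7.5e-09). The unlabelled cells of the gates did not differ by the test (0.21 ± 0.19, adjusted p = 0.33).

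Lor encodes loricrin, a glycine-rich main component of the mature envelope in skin. It had 51.3, 31, 33.4 and 21.6 CPM in the RFP+ MHCIIlo libraries, against 6.48, 1.7, 1.54 and 1.46 CPM in the RFP- MHCIIlo libraries. In MHCIIhi it had 11.4, 8.52, 9.66 and 9.05 CPM in RFP+ cells, against 3.94, 3.94, 5.22 and 2.64 CPM in RFP- cells. The populations separated as for Ivl, although RFP- MHCIIlo replicate 1 stood above its 3 fellow libraries. The label difference was 3.68 ± 0.33 in MHCIIlo (adjusted p = 2.5e-09) and 1.30 ± 0.31 in MHCIIhi (adjusted p = 0.0013).

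The fused-type S100 genes next to Flg were of very unequal level. Rptn, the gene of repetin, a keratin-associated protein of stratified epithelia, had the highest level per kb of exon among the structural genes in all 4 populations. It had 458, 445, 470 and 414 CPM in the RFP+ MHCIIlo libraries, against 88.9, 75.2, 69.4 and 81.5 CPM in the RFP- MHCIIlo libraries. In MHCIIhi it had 402, 377, 360 and 338 CPM in RFP+ cells, against 49.6, 60.1, 41.8 and 53.7 CPM in RFP- cells. Labelled and unlabelled libraries did not overlap in either gate, and the label differences were 2.51 ± 0.10 in MHCIIlo (adjusted p = 3.8e-15) and 2.85 ± 0.10 in MHCIIhi (adjusted p = 7.9e-16). The difference between them was -0.34 ± 0.14 (adjusted p = 0.059) and was called without RFP+ MHCIIlo replicate 3, RFP- MHCIIlo replicate 3, RFP+ MHCIIhi replicate 4 or RFP- MHCIIhi replicate 2 (-0.40, -0.40, -0.38 and -0.43). It was also called with limma-voom (adjusted p = 0.038) and with no low-count filter (adjusted p = 0.031). Its call in RFP+ MHCIIlo against RFP+ MHCIIhi (0.28 ± 0.10, adjusted p = 0.017) was lost in 6 of 26 alternatives. Without RFP+ MHCIIlo replicates 2 or 3 the difference was 0.25 and 0.23, and without RFP+ MHCIIhi replicates 2 or 4 it was 0.26 and 0.23.

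Hrnr, the gene of the filaggrin relative hornerin, had 147, 92.8, 120 and 86.9 CPM in the RFP+ MHCIIlo libraries, against 12, 9.42, 9.64 and 7.57 CPM in the RFP- MHCIIlo libraries. It had 51.1, 47.2, 47.4 and 37.2 CPM in the RFP+ MHCIIhi libraries, against 12.6, 12.3, 12.4 and 11.5 CPM in the RFP- MHCIIhi libraries. Labelled and unlabelled libraries did not overlap in either gate, with differences of 3.54 ± 0.16 in MHCIIlo (adjusted p = 1.4e-14) and 1.91 ± 0.15 in MHCIIhi (adjusted p = 1.9e-10). Flg2, a close relative of filaggrin, averaged 9.37 ± 4.02 CPM in the RFP+ MHCIIlo libraries, 0.660 ± 0.354 in RFP- MHCIIlo, 2.79 ± 0.349 in RFP+ MHCIIhi and 0.759 ± 0.314 in RFP- MHCIIhi (SD, n = 4 each). Its label differences were 3.78 ± 0.36 in MHCIIlo (adjusted p = 5.4e-09) and 1.82 ± 0.34 in MHCIIhi (adjusted p = 0.00013). Flg itself had low counts, at 2.91 ± 0.425, 0.614 ± 0.318, 2.11 ± 0.766 and 0.643 ± 0.251 CPM in the same order. Its label differences were 2.20 ± 0.39 in MHCIIlo (adjusted p = 5.2e-05) and 1.70 ± 0.36 in MHCIIhi (adjusted p = 0.00044), and their difference was not called (adjusted p = 0.52).

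Crnn and Tchh also followed the label but were as high or higher in RFP+ MHCIIhi. Crnn, the gene of cornulin, a protein of squamous epithelia such as the oesophagus, had 36, 35, 56.7 and 32.2 CPM in the RFP+ MHCIIlo libraries, against 6.91, 3.48, 3.5 and 4.99 CPM in the RFP- MHCIIlo libraries. It had 46.9, 42.2, 43.2 and 48.2 CPM in the RFP+ MHCIIhi libraries, against 24.2, 20.7, 19.2 and 21.4 CPM in the RFP- MHCIIhi libraries. The lowest population was clearly separate from the rest, and Crnn was lower in RFP- MHCIIlo than in RFP- MHCIIhi by -2.20 ± 0.19 (adjusted p = 4.2e-10). Labelled cells of the gates did not differ by the test (-0.18 ± 0.15, adjusted p = 0.33), but without RFP+ MHCIIlo replicate 3 Crnn was called lower there (-0.42). Tchh, the gene of trichohyalin of the hair follicle inner root sheath, had 48.3, 36.2, 37.1 and 38.5 CPM in the RFP+ MHCIIlo libraries, against 17.9, 17.2, 20.1 and 22.3 CPM in the RFP- MHCIIlo libraries. It had 58.4, 50.3, 59.5 and 50.8 CPM in the RFP+ MHCIIhi libraries, against 38, 33.2, 31.9 and 35.9 CPM in the RFP- MHCIIhi libraries. Its labelled libraries lay above the unlabelled ones of the same gate.

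Tchh was higher with the label by 1.04 ± 0.11 in MHCIIlo (adjusted p = 2.3e-08) and by 0.65 ± 0.10 in MHCIIhi (adjusted p = 8.8e-06). Tchhl1, its neighbour, averaged 2.04 ± 0.851 CPM in the RFP+ MHCIIlo libraries, 1.04 ± 0.290 in RFP- MHCIIlo, 3.42 ± 0.689 in RFP+ MHCIIhi and 4.84 ± 1.09 in RFP- MHCIIhi (SD, n = 4 each). Its label difference in MHCIIlo was 0.96 ± 0.35 (adjusted p = 0.023). That call did not hold without RFP+ MHCIIlo replicate 2 (0.70), RFP- MHCIIlo replicate 3 (0.92) or RFP- MHCIIlo replicate 4 (0.80). Its call in RFP+ MHCIIlo against RFP+ MHCIIhi (-0.75 ± 0.29, adjusted p = 0.031) did not hold without RFP+ MHCIIlo replicate 1 (-0.53) or RFP+ MHCIIhi replicates 1 or 3 (-0.69 and -0.68).

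**Figure D3:**
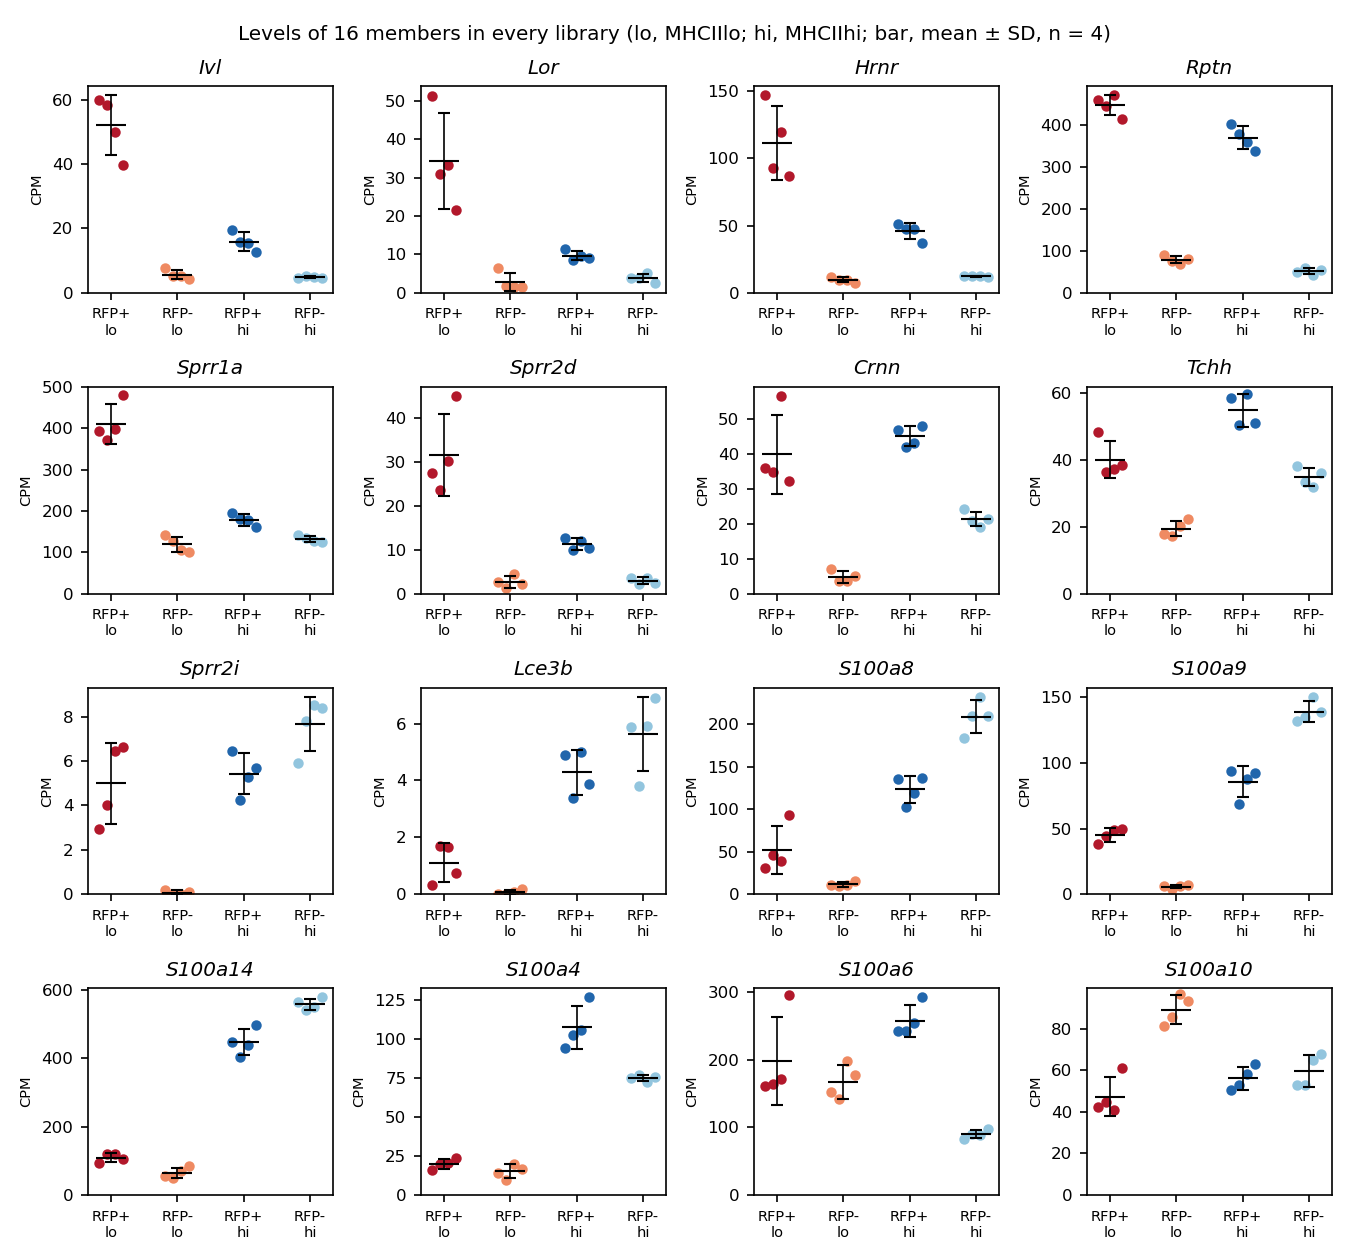
CPM of 16 members in each library (points, 4 per population) with the mean and SD (bars), on linear axes from 0. Ivl, Lor, Hrnr, Sprr1a and Sprr2d are highest in RFP+ MHCIIlo; S100a8, S100a9, S100a14 and Sprr2i are highest in RFP- MHCIIhi and lowest in RFP- MHCIIlo; S100a10 is highest in RFP- MHCIIlo.

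Per kb of annotated exon, Sprr1a was the most abundant member of RFP+ MHCIIlo. Its level was 510 CPM per kb there, 148 in RFP- MHCIIlo, 221 in RFP+ MHCIIhi and 164 in RFP- MHCIIhi. The next members of RFP+ MHCIIlo on the same scale were S100a11 at 319, S100a6 at 145, S100a1 at 139 and Rptn at 108 CPM per kb. In RFP- MHCIIhi the leading members per kb were S100a14 at 324, S100a8 at 301, S100a9 at 266 and S100a11 at 234 CPM per kb, and Rptn stood at 12.4. Flg and Flg2 were at the low end, with 0.155 and 0.450 CPM per kb in RFP+ MHCIIlo.

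The genes of the Sprr1, Sprr3 and Sprr4 kind encode cross-bridging proteins of the envelope. All 4 were higher in RFP+ MHCIIlo than in RFP- MHCIIlo, where 28.9% of all genes were called higher. In a fit of those populations alone 3 passed the filter, and all 3 were higher. Sprr1a had 393, 372, 399 and 482 CPM in the RFP+ MHCIIlo libraries, against 141, 128, 106 and 101 CPM in the RFP- MHCIIlo libraries. It had 194, 180, 178 and 161 CPM in the RFP+ MHCIIhi libraries, against 142, 135, 127 and 124 CPM in the RFP- MHCIIhi libraries. The labelled libraries were above the unlabelled in both gates, by 1.79 ± 0.10 in MHCIIlo (adjusted p = 1e-12) and 0.43 ± 0.10 in MHCIIhi (adjusted p = 0.0011). Unlabelled cells of the gates did not differ by the test (-0.15 ± 0.10, adjusted p = 0.19), but Sprr1a was called lower in RFP- MHCIIlo with library totals as the scale (-0.45, adjusted p = 0.00058) and without RFP- MHCIIlo replicate 1 (-0.24, adjusted p = 0.042).

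Sprr1b, its paralogue, took another course. It had 6.37, 6.09, 5.61 and 11.3 CPM in the RFP+ MHCIIlo libraries, against 0.213, 0.848, 0.853 and 0.86 CPM in the RFP- MHCIIlo libraries. In MHCIIhi it had 8.42, 9.27, 9.22 and 8.63 CPM in RFP+ cells, against 7.05, 7.49, 8.83 and 7.06 CPM in RFP- cells. Only RFP- MHCIIlo stood apart, and the label difference was 3.36 ± 0.29 in MHCIIlo (adjusted p = 1.1e-09) and 0.23 ± 0.20 in MHCIIhi (adjusted p = 0.36). Sprr4 averaged 1.96 ± 0.891 CPM in the RFP+ MHCIIlo libraries, 0.218 ± 0.311 in RFP- MHCIIlo, 2.08 ± 0.472 in RFP+ MHCIIhi and 4.14 ± 1.04 in RFP- MHCIIhi. Sprr3, known from oesophageal and oral epithelium, averaged 0.489 ± 0.545, 0.0212 ± 0.0424, 1.88 ± 0.572 and 4.33 ± 0.410 CPM in the same order (SD, n = 4 each).

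Both were lower with the label in MHCIIhi, Sprr3 by -1.18 ± 0.36 (adjusted p = 0.010) and Sprr4 by -0.99 ± 0.35 (adjusted p = 0.023). The Sprr4 call was lost when RFP+ MHCIIhi replicates 1 or 3 were left out (-0.97 and -0.84), or RFP- MHCIIhi replicates 2 or 3 (-0.83 and -0.97). In MHCIIlo the direction was the other way, with 3.90 ± 1.12 for Sprr3 (adjusted p = 0.0055) and 3.10 ± 0.57 for Sprr4 (adjusted p = 7e-05).

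Among the Sprr2 genes, another set of envelope cross-bridging proteins, 9 of the 10 tested were higher in RFP+ MHCIIlo than in RFP- MHCIIlo, and in MHCIIhi 2 of 10 were higher with the label. The shares of all genes called higher were 28.9% and 23.8%, so the count in MHCIIhi was near its share. In a fit of the MHCIIlo populations alone 6 passed the filter, of which 5 were higher. Sprr2d, the Sprr2 gene with the highest level per kb of exon in RFP+ MHCIIlo, followed the label in both gates. It had 27.4, 23.6, 30.2 and 44.9 CPM in the RFP+ MHCIIlo libraries, against 2.66, 1.36, 4.35 and 2.06 CPM in the RFP- MHCIIlo libraries. It had 12.7, 9.8, 12 and 10.3 CPM in the RFP+ MHCIIhi libraries, against 3.62, 2.26, 3.53 and 2.41 CPM in the RFP- MHCIIhi libraries. The pattern was that of Ivl, with differences of 3.60 ± 0.25 (adjusted p = 3.1e-11) and 1.92 ± 0.24 (adjusted p = 5.2e-07).

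Sprr2i, whose window is printed beside that of Sprr2d, had 2.92, 4.02, 6.44 and 6.63 CPM in the RFP+ MHCIIlo libraries, against 0.213, 0, 0 and 0.086 CPM in the RFP- MHCIIlo libraries. In MHCIIhi it had 6.47, 4.26, 5.27 and 5.68 CPM in RFP+ cells, against 5.89, 7.81, 8.52 and 8.38 CPM in RFP- cells. It was nearly without reads in RFP- MHCIIlo, with 3 reads over 4 libraries, and was present in the other populations with or without the label. The label difference was 6.04 ± 0.51 in MHCIIlo (adjusted p = 6.2e-10) and -0.50 ± 0.23 in MHCIIhi (adjusted p = 0.082). That difference was called with limma-voom (-0.49, adjusted p = 0.038), in the fit of RFP+ MHCIIhi and RFP- MHCIIhi alone (-0.48, adjusted p = 0.0087) and without RFP+ MHCIIlo replicate 1 (-0.50, adjusted p = 0.047) or either pair of RFP+ MHCIIlo libraries (-0.49 each, adjusted p = 0.035). The tested Sprr2b, Sprr2e, Sprr2f, Sprr2g, Sprr2h, Sprr2j-ps and Sprr2k had label differences of 2.15 to 3.57 in MHCIIlo, all called, and of -0.37 to 0.94 in MHCIIhi, none called. Of all genes, 28.9% were called higher in MHCIIlo, and 23.8% higher and 21.2% lower in MHCIIhi.

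Sprr2a3 was the other Sprr2 gene called in MHCIIhi. It had 7.25, 6.01, 7.68 and 9.54 CPM in the RFP+ MHCIIhi libraries, against 2.78, 2.71, 3.61 and 3.27 CPM in the RFP- MHCIIhi libraries, a difference of 1.30 ± 0.23 (adjusted p = 5.8e-05). In MHCIIlo it had 3.46, 4.75, 4.99 and 7.38 CPM in RFP+ cells, against 6.27, 6.62, 3.92 and 8.52 CPM in RFP- cells, which overlapped (-0.28 ± 0.24, adjusted p = 0.34). Sprr2a3 shares 61.1% of its 50-base words with other genes, and Sprr2a1 and Sprr2a2 share 96.3% and 96.5%. Reads of these 3 copies cannot be assigned with certainty, and the 2 and 7 reads of Sprr2a1 and Sprr2a2 are no measure of their level.

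The LCE genes were low throughout and depended on few reads. The 7 Lce3 and Lce6a genes summed to 4.75 ± 1.46 CPM in the RFP+ MHCIIlo libraries, 0.970 ± 0.506 in RFP- MHCIIlo, 10.4 ± 1.58 in RFP+ MHCIIhi and 12.6 ± 1.16 in RFP- MHCIIhi (SD, n = 4 each). Lce3b, of a group whose human relatives are known from repairing and psoriatic skin, had 0.324, 1.71, 1.66 and 0.746 CPM in the RFP+ MHCIIlo libraries, against 0, 0, 0.0853 and 0.172 CPM in the RFP- MHCIIlo libraries. It had 4.91, 3.38, 4.99 and 3.86 CPM in the RFP+ MHCIIhi libraries, against 5.89, 3.81, 5.91 and 6.89 CPM in the RFP- MHCIIhi libraries. The labelled libraries were above the unlabelled ones in MHCIIlo and below all those of MHCIIhi. The label difference was 3.84 ± 0.71 in MHCIIlo (adjusted p = 8.3e-05), and RFP+ MHCIIlo differed from RFP+ MHCIIhi by -1.97 ± 0.35 (adjusted p = 4.2e-05). In MHCIIhi the label difference was -0.40 ± 0.27 (adjusted p = 0.25).

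Lce3c behaved alike in the label comparison, at 2.94 ± 0.60 in MHCIIlo (adjusted p = 0.00023) and -0.44 ± 0.35 in MHCIIhi (adjusted p = 0.32). In a fit of the MHCIIlo populations alone no Lce3 and Lce6a gene passed the filter. Lce3a had 2, 1, 1 and 6 reads in the 4 RFP+ MHCIIlo libraries, 10 in all, and none in RFP- MHCIIlo. On the summed reads it was at least 3.79-fold higher with a floor of 3 counts over the group, a bound that leaves out the spread between pools. Against RFP- MHCIIhi, where it had 124 reads, RFP- MHCIIlo was at least 27.3-fold lower. Lce6a was called in 1 of the 5 comparisons, RFP+ MHCIIhi against RFP- MHCIIhi, where it was higher by 1.57 ± 0.50 (adjusted p = 0.012). In the fit of those populations alone, no Lce3 and Lce6a gene was called higher. Lce3d, Lce3e and Lce3f share 49.3%, 43.7% and 48.0% of their 50-base words with other genes, so their single values are uncertain.

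**Figure D4:**
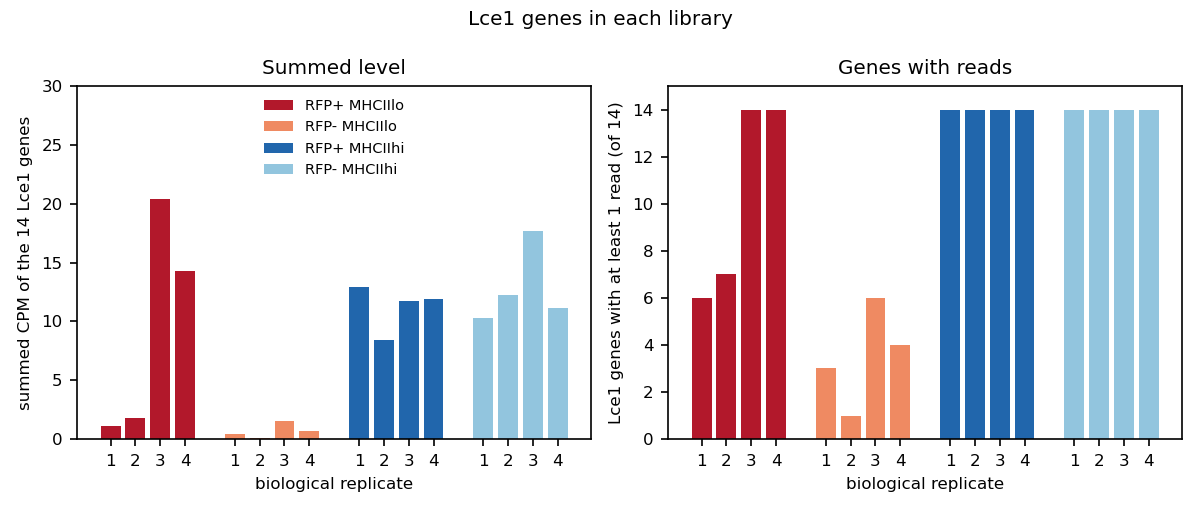
Summed CPM of the 14 Lce1 genes (left) and number of them with at least 1 read (right) in each of the 16 libraries, grouped by population, with replicate numbers below. RFP+ MHCIIlo replicates 1 and 2 lie at 1.08 and 1.83 CPM and replicates 3 and 4 at 20.4 and 14.3 CPM.

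The Lce1 genes differed within RFP+ MHCIIlo. Their summed level was 1.08, 1.83, 20.4 and 14.3 CPM in the RFP+ MHCIIlo libraries (10, 15, 196 and 173 reads), against 0.425, 0.0848, 1.54 and 0.688 CPM in the RFP- MHCIIlo libraries (4, 1, 18 and 8 reads). It was 12.9, 8.4, 11.7 and 11.9 CPM in the RFP+ MHCIIhi libraries and 10.3, 12.2, 17.7 and 11.1 CPM in the RFP- MHCIIhi libraries. Replicates 3 and 4 of RFP+ MHCIIlo reached or passed the MHCIIhi libraries and held reads of all 14 genes, whereas replicates 1 and 2 held reads of 6 and 7 genes and lay close to RFP- MHCIIlo. Of the 8 tested Lce1 genes 6 were called higher in RFP+ MHCIIlo than in RFP- MHCIIlo, with a median of 3.37, or 3.07 with the genes at 0 reads set to their bound. The share of all genes called higher there was 28.9%. In a fit of those populations alone no Lce1 gene passed the filter, so the tested genes were admitted through other populations and their count cannot be compared with that share. With replicates 3 and 4 of RFP+ MHCIIlo left out, 1 of 8 was called, so the result rests on those pools.

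The gate difference of unlabelled cells does not involve those pools. In RFP- MHCIIlo against RFP- MHCIIhi, the 6 tested Lce1 genes with reads in both populations had differences of -2.65 to -5.21, all called (35.6% of all genes were lower). These genes passed the filter through the populations in which they are high, so a lower level in RFP- MHCIIlo is partly set by the filter, and the other 6 of the 14 were not tested. No Lce1 gene was called between RFP+ MHCIIhi and RFP- MHCIIhi, where 23.8% of all genes were higher and 21.2% lower. Lce1d had 0, 5, 17 and 2 reads in the RFP+ MHCIIlo libraries and none in RFP- MHCIIlo, and Lce1h had 0, 0, 4 and 9 against none. On reads summed over the pools they were at least 9.1-fold and 4.93-fold higher. On the same sums RFP- MHCIIlo was at least 15-fold lower than RFP- MHCIIhi for Lce1d and at least 17.8-fold lower for Lce1h. These bounds leave out the spread between pools, and some RFP+ MHCIIlo pools had no reads either. Lce1m, which lies apart from the other Lce1 genes beyond Lce3f, had 0, 0, 1.45 and 0.166 CPM in the RFP+ MHCIIlo libraries, against 0.213, 0, 0 and 0.086 CPM in the RFP- MHCIIlo libraries. It had 2.57, 1.98, 2.36 and 2.6 CPM in the RFP+ MHCIIhi libraries, against 2.32, 3.16, 3.22 and 2.7 CPM in the RFP- MHCIIhi libraries. Its label difference in MHCIIlo was not called (2.44 ± 1.06, adjusted p = 0.058) and was -0.038 without RFP+ MHCIIlo replicate 3. It was called when any of the other RFP+ MHCIIlo libraries or RFP- MHCIIlo replicate 1 was left out, at 2.76 to 3.47, and with no low-count filter, library totals as the scale or DESeq2 (adjusted p = 0.017, 0.044 and 0.019).

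The S100a genes summed to a higher level in MHCIIhi than in MHCIIlo, at 849 ± 111 CPM in the RFP+ MHCIIlo libraries, 693 ± 65.0 in RFP- MHCIIlo, 1690 ± 143 in RFP+ MHCIIhi and 1690 ± 59.9 in RFP- MHCIIhi (SD, n = 4 each). All 13 were tested. In MHCIIlo 8 were higher and 2 lower with the label (median 0.50), against 28.9% and 22.7% of all genes. In MHCIIhi 5 were higher and 4 lower, against 23.8% and 21.2% of all genes. In RFP+ MHCIIlo against RFP+ MHCIIhi 10 were lower and none higher (28.1% and 27.5% of all genes). In RFP- MHCIIlo against RFP- MHCIIhi 9 were lower and 4 higher, where 35.6% of all genes were lower and 33.5% higher. The 4 were S100a1, S100a6, S100a10 and S100a11. For S100a11 the call was lost with library totals as the scale (0.05, adjusted p = 0.70).

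S100a8 and S100a9 encode the subunits of calprotectin, which is stored in neutrophils and induced in stressed keratinocytes. S100a9 had 38.2, 44.5, 48.6 and 49.6 CPM in the RFP+ MHCIIlo libraries, against 6.06, 4.16, 6.06 and 6.71 CPM in the RFP- MHCIIlo libraries. It had 93.9, 68.3, 87.6 and 92.1 CPM in the RFP+ MHCIIhi libraries, against 132, 135, 150 and 139 CPM in the RFP- MHCIIhi libraries. The populations did not overlap: MHCIIhi libraries lay above MHCIIlo libraries, unlabelled above labelled in MHCIIhi and labelled above unlabelled in MHCIIlo. The label difference was 2.98 ± 0.14 in MHCIIlo (adjusted p = 2e-14) and -0.70 ± 0.10 in MHCIIhi (adjusted p = 6e-06), so that its sign differed between the gates.

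S100a8 kept the same order. It had 30.3, 45.7, 39.3 and 93 CPM in the RFP+ MHCIIlo libraries, against 11.3, 9.67, 10.4 and 15.4 CPM in the RFP- MHCIIlo libraries. It had 135, 103, 119 and 137 CPM in the RFP+ MHCIIhi libraries, against 184, 210, 232 and 210 CPM in the RFP- MHCIIhi libraries. RFP+ MHCIIlo replicate 4 was near the RFP+ MHCIIhi libraries. The label difference was 2.17 ± 0.24 in MHCIIlo (adjusted p = 7.3e-08) and -0.76 ± 0.20 in MHCIIhi (adjusted p = 0.0036). Unlabelled cells were lower in MHCIIlo than in MHCIIhi by -4.16 ± 0.25 for S100a8 (adjusted p = 5.5e-13) and -4.60 ± 0.13 for S100a9 (adjusted p = 1.4e-17).

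Neutrophil markers differed between the gates. Of 10 neutrophil genes 9 were tested: 3 were higher and none lower in RFP+ MHCIIlo against RFP- MHCIIlo, 1 higher and 6 lower in RFP+ MHCIIlo against RFP+ MHCIIhi, 2 higher and none lower in RFP+ MHCIIhi against RFP- MHCIIhi, and 1 higher and 8 lower in RFP- MHCIIlo against RFP- MHCIIhi. The shares of all genes called higher were 28.9% and 23.8% in the label comparisons of MHCIIlo and MHCIIhi, near those of the list, and the shares called lower were 28.1% and 35.6% in the gate comparisons of RFP+ and RFP- cells. Ly6g averaged 1.35, 0.235, 24.9 and 24.5 CPM in RFP+ MHCIIlo, RFP- MHCIIlo, RFP+ MHCIIhi and RFP- MHCIIhi, and Mpo 2.18, 1.29, 38.6 and 43.5 CPM. Elane stayed at 0.0426 to 0.173 CPM and Csf3r at 0.149 to 1.62 CPM on average, and none of the 10 was at 0 in a whole population. The list summed to 145 to 183, 70.5 to 174, 135 to 158 and 110 to 125 CPM in the same order, most of it Ltf in MHCIIlo. The 9 monocyte and macrophage genes summed to 198 to 283, 116 to 149, 638 to 659 and 413 to 503 CPM. Of the 8 tested, 5 were higher and none lower in RFP+ MHCIIlo against RFP- MHCIIlo. In RFP+ MHCIIlo against RFP+ MHCIIhi 1 was higher and 5 lower. In RFP+ MHCIIhi against RFP- MHCIIhi 4 were higher and 1 lower. In RFP- MHCIIlo against RFP- MHCIIhi none was higher and 6 lower. The 6 thymocyte genes summed to 51.1 to 115, 36.9 to 57.2, 78.5 to 124 and 275 to 594 CPM. Of these 6, 4 were higher and none lower in RFP+ MHCIIlo against RFP- MHCIIlo. In RFP+ MHCIIlo against RFP+ MHCIIhi 1 was higher and 2 lower. All 6 were lower in RFP+ MHCIIhi and in RFP- MHCIIlo, each against RFP- MHCIIhi (21.2% and 35.6% of all genes). The part of such cells in the S100a8 and S100a9 levels was not tested.

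S100a14, an epithelial S100 gene, had the highest level per kb of exon among the members in RFP- MHCIIhi. It had 92.3, 121, 119 and 106 CPM in the RFP+ MHCIIlo libraries, against 54.4, 49, 70.5 and 83.9 CPM in the RFP- MHCIIlo libraries. It had 449, 405, 439 and 498 CPM in the RFP+ MHCIIhi libraries, against 565, 542, 550 and 579 CPM in the RFP- MHCIIhi libraries. Like S100a8 and S100a9 it was higher with the label in MHCIIlo (0.76 ± 0.13, adjusted p = 1.8e-05) and lower with it in MHCIIhi (-0.32 ± 0.12, adjusted p = 0.031). The call in MHCIIhi did not hold without RFP+ MHCIIhi replicates 2 or 3 (-0.28 and -0.31) or RFP- MHCIIhi replicates 1 or 4 (-0.31 each). S100a16, another widely expressed epithelial S100 gene, averaged 61.0 ± 5.96 CPM in the RFP+ MHCIIlo libraries, 80.5 ± 16.4 in RFP- MHCIIlo, 230 ± 24.8 in RFP+ MHCIIhi and 253 ± 6.02 in RFP- MHCIIhi. It was lower with the label in MHCIIlo by -0.40 ± 0.11 (adjusted p = 0.0045), a call lost with library totals as the scale (-0.25, adjusted p = 0.095).

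S100a3, known from the hair cuticle, averaged 11.8 ± 4.30 CPM in the RFP+ MHCIIlo libraries, 8.31 ± 2.31 in RFP- MHCIIlo, 42.2 ± 2.39 in RFP+ MHCIIhi and 65.4 ± 4.03 in RFP- MHCIIhi. It was lower in RFP+ MHCIIhi than in RFP- MHCIIhi by -0.63 ± 0.16 (adjusted p = 0.0018). Its annotated span covers S100a2, so reads of the pair may be mixed. S100a4, a gene tied to cell motility, averaged 20.1 ± 3.11, 15.3 ± 4.38, 108 ± 13.7 and 75.2 ± 1.79 CPM in the same order, and 47.4% of its 50-base words occur elsewhere. It was higher with the label in MHCIIhi by 0.52 ± 0.13 (adjusted p = 0.0020), and its difference of RFP+ MHCIIlo against RFP+ MHCIIhi was -2.42 ± 0.14 (adjusted p = 2.6e-12). The label differences of S100a3 (0.50 ± 0.20, adjusted p = 0.045) and S100a4 (0.39 ± 0.16, adjusted p = 0.037) in MHCIIlo lost their calls in 17 and 13 of 26 alternatives, 14 and 10 of them with 1 library of any population left out, over ranges of 0.24 to 0.71 and 0.22 to 0.56. S100a5 had 3 and 8 reads in the RFP+ MHCIIlo and RFP- MHCIIlo libraries, against 178 and 197 in RFP+ MHCIIhi and RFP- MHCIIhi.

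S100a6 and S100a10 were not lowest in RFP- MHCIIlo. S100a6, the gene of calcyclin, had 161, 164, 172 and 295 CPM in the RFP+ MHCIIlo libraries, against 152, 142, 198 and 178 CPM in the RFP- MHCIIlo libraries. It had 243, 242, 254 and 292 CPM in the RFP+ MHCIIhi libraries, against 82.6, 90.9, 88.6 and 98.1 CPM in the RFP- MHCIIhi libraries. RFP- MHCIIhi was the lowest population, and the label difference was 1.52 ± 0.15 in MHCIIhi (adjusted p = 1e-08) and 0.25 ± 0.15 in MHCIIlo (adjusted p = 0.16; called at 0.39 with library totals as the scale). The call of S100a6 in RFP+ MHCIIlo against RFP+ MHCIIhi (-0.38 ± 0.14, adjusted p = 0.031) did not hold without RFP+ MHCIIlo replicates 1, 2 or 3 (-0.29, -0.32 and -0.34) or RFP+ MHCIIhi replicate 4 (-0.31).

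S100a10, which pairs with annexin A2 at the membrane, had 42.4, 45, 40.7 and 61 CPM in the RFP+ MHCIIlo libraries, against 81.5, 85.8, 96.6 and 93.3 CPM in the RFP- MHCIIlo libraries. It had 50.7, 52.8, 58.4 and 62.9 CPM in the RFP+ MHCIIhi libraries, against 53, 52.9, 64.8 and 68 CPM in the RFP- MHCIIhi libraries. RFP- MHCIIlo was above every other library, and the label difference was -0.91 ± 0.12 in MHCIIlo (adjusted p = 5.6e-07) and -0.09 ± 0.11 in MHCIIhi (adjusted p = 0.58). Fibroblast markers were also highest in RFP- MHCIIlo: the 6 genes summed to 48.3 to 159 CPM in RFP+ MHCIIlo, against 420 to 960 in RFP- MHCIIlo, and to 93.6 to 108 in RFP+ MHCIIhi and 129 to 135 in RFP- MHCIIhi. Of these 6, none was higher and 5 lower in RFP+ MHCIIlo against RFP- MHCIIlo (28.9% and 22.7% of all genes). None of the 6 was at 0 in a population, and their part in the S100a10 level was not tested. Of the 5 endothelial genes, 1 was higher and 4 lower in RFP+ MHCIIlo against RFP- MHCIIlo. In RFP- MHCIIlo against RFP- MHCIIhi 4 were higher and none lower (33.5% and 35.6% of all genes). They summed to 36.1 to 52.4 CPM in RFP+ MHCIIlo, 48.4 to 80.5 in RFP- MHCIIlo, 25.2 to 29.9 in RFP+ MHCIIhi and 24.3 to 28.1 in RFP- MHCIIhi, none was at 0 in a population, and their part was not tested either. Anxa2 itself averaged 178, 351, 109 and 109 CPM in RFP+ MHCIIlo, RFP- MHCIIlo, RFP+ MHCIIhi and RFP- MHCIIhi, with a label difference of -0.98 ± 0.08 in MHCIIlo (adjusted p = 5.2e-10). Over the 6 S100 partners and receptors, 1 was higher and 4 lower with the label in MHCIIlo, and 2 were higher and 1 lower in MHCIIhi. Of all genes, 28.9% were higher and 22.7% lower in MHCIIlo, and 23.8% and 21.2% in MHCIIhi.

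S100a11, another envelope-associated S100 gene of keratinocytes, was nearly even, at 163 ± 8.49 CPM in the RFP+ MHCIIlo libraries, 151 ± 14.3 in RFP- MHCIIlo, 146 ± 14.5 in RFP+ MHCIIhi and 120 ± 10.1 in RFP- MHCIIhi (SD, n = 4 each). It was higher with the label in MHCIIhi by 0.29 ± 0.09 (adjusted p = 0.0083), a call lost with library totals as the scale (0.23, adjusted p = 0.076). As 41.1% of the 50-base words of S100a11 occur in other genes, its level is uncertain, also in the ranking per kb. S100a1 was higher with the label in both gates, by 0.51 ± 0.10 in MHCIIlo (adjusted p = 0.00018) and 0.91 ± 0.10 in MHCIIhi (adjusted p = 6.1e-08), and so was S100a13, by 0.50 ± 0.11 (adjusted p = 0.00069) and 0.64 ± 0.10 (adjusted p = 2e-05). These neighbours start close together on opposite strands, and the strand setting of the counting is not given, so reads of their ends may be shared.

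**Figure D5:**
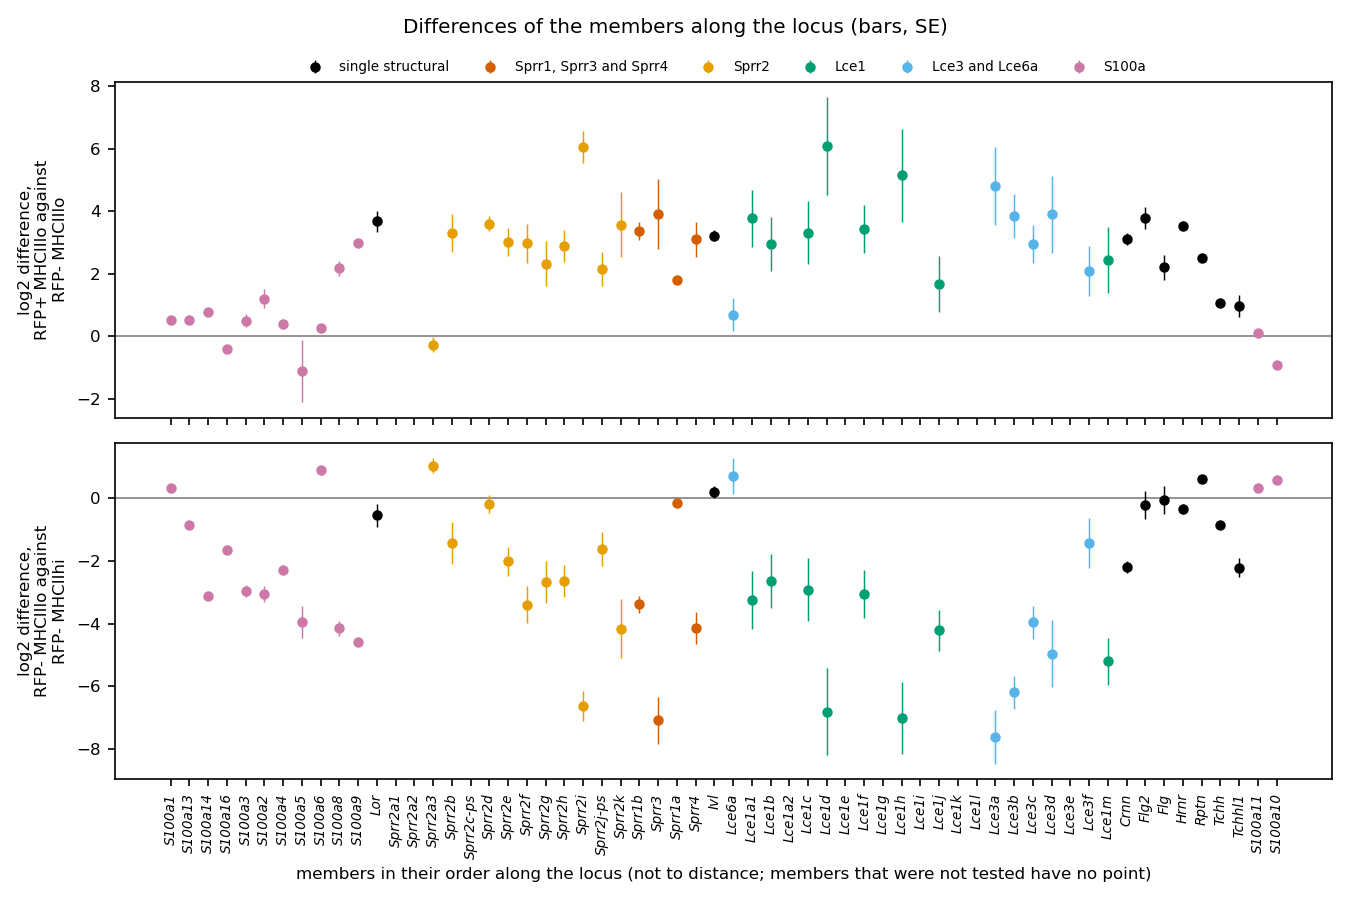
Log2 difference with SE of the 50 tested members in their order along the locus, for RFP+ MHCIIlo against RFP- MHCIIlo (upper panel) and for RFP- MHCIIlo against RFP- MHCIIhi (lower panel), coloured by family. From Lor to Tchhl1 all points but Sprr2a3 lie above 0 in the upper panel, and Ivl, Sprr1a, Sprr2d, Flg2, Flg and Hrnr lie near 0 in the lower panel beside strongly negative Sprr, Lce and S100a points; the values of Lce1d, Lce1h and Lce3a against a population with no reads are not bounds.

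Members that follow each other along the locus could differ in pattern, as with Sprr1b, Sprr3 and Sprr1a. Sprr1b and its other neighbour Sprr2k were both called higher with the label in MHCIIlo and not called in MHCIIhi. The upper panel of the locus plot shows that the S100a genes at both ends of the locus had differences of -1.12 to 2.98, while all tested structural, Sprr and Lce members except Sprr2a3 ranged from 0.68 to 6.08. The 6.08 belongs to Lce1d, which had no reads in RFP- MHCIIlo, so its size is set by the fit and is not a bound. In RFP- MHCIIlo against RFP- MHCIIhi, Ivl, Lor, Flg, Flg2, Hrnr, Sprr1a and Sprr2d were not called, whereas Crnn next to Flg2 and Sprr1b near Sprr1a were lower (-2.20 and -3.39). Lor was called lower there without RFP- MHCIIlo replicate 1 (-1.31). Hrnr, at -0.35 ± 0.17 (adjusted p = 0.066), was called lower with RLE scaling, library totals or DESeq2 (-0.40, -0.64 and -0.40), with no low-count filter (-0.38), in the fit of those populations alone (-0.36), and without RFP+ MHCIIlo replicates 1 or 4 (-0.35 each) or RFP- MHCIIlo replicate 1 (-0.46). It was also called lower with the replicate number as a block (-0.35) and without either pair of RFP+ MHCIIlo libraries (-0.35 each). Other genes of the locus were also higher with the label. Of Kprp, Crct1, Smcp, Pglyrp3 and Pglyrp4 (Lelp1 had too few reads), all 5 were higher in RFP+ MHCIIlo against RFP- MHCIIlo (median 2.58) and 3 of 5 were higher in RFP+ MHCIIhi against RFP- MHCIIhi. The shares of all genes called higher were 28.9% and 23.8%. Kprp, the gene of a keratinocyte proline-rich protein, averaged 20.7, 3.44, 9.27 and 6.75 CPM in RFP+ MHCIIlo, RFP- MHCIIlo, RFP+ MHCIIhi and RFP- MHCIIhi.

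A list of 10 partner genes of envelope formation was higher with the label as well: Tgm1, Tgm3, Tgm5, Evpl, Ppl, Scel, Cdsn, Cst6, Casp14 and Asprv1. All 10 of them were higher in RFP+ MHCIIlo against RFP- MHCIIlo (median 2.74) and in RFP+ MHCIIhi against RFP- MHCIIhi (median 1.30). The shares of all genes called higher there were 28.9% and 23.8%. The transglutaminase gene Tgm1, whose product cross-links envelope proteins, averaged 23.6, 8.30, 13.7 and 4.72 CPM in RFP+ MHCIIlo, RFP- MHCIIlo, RFP+ MHCIIhi and RFP- MHCIIhi. Tgm3 and Tgm5 were instead highest in RFP+ MHCIIhi, at 25.5, 3.65, 46.9 and 18.3 CPM and at 16.9, 2.53, 36.0 and 16.7 CPM. Cdsn, the gene of corneodesmosin, averaged 41.4, 5.14, 13.0 and 8.33 CPM, and Casp14, a caspase gene of cornifying cells, 31.5, 2.97, 17.4 and 9.89 CPM. In RFP- MHCIIlo against RFP- MHCIIhi 4 of the 10 were higher and 5 lower, against 33.5% and 35.6% of all genes.

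Of 17 transcription factor genes known to act on the locus in skin, 13 were higher and 4 lower in RFP+ MHCIIlo against RFP- MHCIIlo, and 14 were higher and 2 lower in RFP+ MHCIIhi against RFP- MHCIIhi. The shares of all genes were 28.9% higher and 22.7% lower in MHCIIlo, and 23.8% and 21.2% in MHCIIhi. Klf4, a factor needed for the skin barrier, averaged 153, 76.2, 64.2 and 26.3 CPM in RFP+ MHCIIlo, RFP- MHCIIlo, RFP+ MHCIIhi and RFP- MHCIIhi, with label differences of 1.00 ± 0.09 in MHCIIlo and 1.29 ± 0.09 in MHCIIhi (adjusted p = 1.5e-09 and 5e-11). Grhl1, a grainyhead-like factor, averaged 69.8, 17.6, 44.5 and 18.8 CPM, with 1.99 ± 0.10 and 1.24 ± 0.10 (adjusted p = 1.1e-13 and 2.6e-10). Grhl3 averaged 32.7, 13.3, 43.8 and 35.6 CPM, lowest in RFP- MHCIIlo. Trp63, the p63 gene of basal epithelium, averaged 117, 381, 119 and 107 CPM and was lower with the label in MHCIIlo by -1.71 ± 0.08 (adjusted p = 6.9e-14).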

How the data were processed

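Poly(A) RNA of the sorted cells was captured on beads, amplified (NuGen Ovation V2) and tagmented (Nextera XT), as the labels' protocols state. In the deposited files are the authors' raw counts per Ensembl gene, 1 file per library. STAR, GRCm38 and DESeq2 are named in the submitters' processing notes without versions; no counting tool, annotation release or strand rule was given in the sources used here.

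Symbols, positions and exon lengths came from GENCODE M21 (GRCm38), which named 42462 of 43432 identifiers; the 970 others held 0.11% of the reads. Sequence sharing is the percentage of a gene's 50-base words found in other genes' transcripts, and 26 members shared none. Promoter windows came from RefSeq (GRCm38.p6).

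Counts were tested in R 4.3.3 with edgeR 4.0.16: filterByExpr (minimum count 10, minimum total 15), TMM scaling and 1 quasi-likelihood fit of all 16 libraries with a mean per population. Benjamini-Hochberg adjustment covered 19617 genes, with a threshold of 0.05. CPM are TMM-scaled counts-per-million values, and the SE of a log2 difference is its size divided by the square root of F. The script was tested on simulated data. Bounds for genes without reads use 3 counts over the population and cover the counting error of that population only. They take the summed reads of the other population as exact and leave out the spread between pools. Libraries of a population differed by more than sampling noise (chi-square per degree of freedom 2.99 to 32.66 over 24 pairs).

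The members, lists and tests were chosen with earlier results of these data known. Members named are the 9 single structural genes, the most abundant of each family (3 each of the genes of the Sprr1, Sprr3 and Sprr4 kind, of Sprr2 and of Lce, 5 of S100a), and, among called members averaging 5 CPM or more in the higher of both populations, the 3 largest differences per direction in each comparison and the 2 largest for the difference of RFP differences. Other members are named to complete their family and were picked after their values were seen. Alternatives were other filters, RLE scaling, library totals, DESeq2 1.42.0, limma-voom (limma 3.58.1), a replicate block, each library left out, pairs of RFP+ MHCIIlo libraries left out and a fit of each pair of populations. The omission of RFP+ MHCIIlo replicates 3 and 4 was added after seeing the data.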

Additional observations from a re-analysis of the deposited data

Results flagged for a closer look

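Of 104 groups of 4 libraries of the named members, 9 had a library far from its 3 fellows, where chance gives about 1 in 20. In RFP+ MHCIIlo, Crnn stood at 56.7 CPM in replicate 3 (others 32.2 to 36), Lce1m at 1.45 CPM in replicate 3 (others 0 to 0.166), Sprr1b at 11.3 CPM in replicate 4 (others 5.61 to 6.37) and S100a6 at 295 CPM in replicate 4 (others 161 to 172). In RFP- MHCIIlo, Lor stood at 6.48 CPM in replicate 1 (others 1.46 to 1.7), Sprr1b at 0.213 CPM in replicate 1 (others 0.848 to 0.86), Flg2 at 1.19 CPM in replicate 2 (others 0.425 to 0.516) and Sprr4 at 0.679 CPM in replicate 2 (others 0 to 0.106). In RFP- MHCIIhi, Tchhl1 stood at 3.22 CPM in replicate 4 (others 5.3 to 5.49).

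The RFP difference of the MHCIIlo gate, less that of the MHCIIhi gate, passed the test (edgeR, adjusted p under 0.05) for 21 of the 27 named members. Some members were named because of their calls in these same comparisons, so that count cannot be compared with a share of all genes. Over all genes the difference was called above 0 for 17.5% and below 0 for 16.6%. Among the structural genes it was 1.5 for Ivl, 2.37 for Lor, 1.96 for Flg2, 1.63 for Hrnr, 0.39 for Tchh, 1.47 for Tchhl1 and 2.03 for Crnn on the log2 scale. Among the Sprr genes it was 1.36 for Sprr1a, 3.13 for Sprr1b, 4.08 for Sprr4, 1.69 for Sprr2d, 6.54 for Sprr2i and -1.59 for Sprr2a3. For Lce3b and Lce3c it was 4.23 and 3.39. Among the S100a genes it was 1.08 for S100a14, 1.13 for S100a3, 2.93 for S100a8, 3.68 for S100a9, -1.27 for S100a6 and -0.83 for S100a10. The Tchh value lost its call in 13 of 25 alternatives, 11 of them with 1 library of any population left out, over a range of 0.26 to 0.60.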

How the results depend on the processing

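Over 135 differences of named members, 3306 of 3479 values under alternatives kept their direction and side of the threshold; 86 lost a call, 68 gained it and 19 turned sign. The cause was not tested. Of 43 members called in RFP+ MHCIIlo against RFP- MHCIIlo, 24 were called when only those populations were fitted, and 22 instead of 41 were higher, since 30 and not 50 members then passed the filter. With library totals as the scale 1 member instead of 2 was lower there. With 1 library left out, 35 to 42 members were higher in that comparison. With RFP+ MHCIIlo replicates 3 and 4 left out 30 were, and with replicates 1 and 4 left out 11 Lce1 genes of 12 tested were. No other count over all members moved by more than 1.5 times. Counts by family did, and the main changes are given, in the same comparison unless named. Without replicates 1 and 4, 2 instead of 5 Lce3 and Lce6a genes were higher. In RFP+ MHCIIlo against RFP+ MHCIIhi 4 instead of 1 Sprr2 genes and 5 instead of 2 Lce3 and Lce6a genes were then lower. In the difference of RFP differences 11 instead of 6 Lce1 genes and 2 instead of 4 Lce3 and Lce6a genes were then higher. Without replicates 3 and 4, 5 instead of 8 S100a genes and 1 instead of 6 Lce1 genes were higher. In RFP+ MHCIIlo against RFP+ MHCIIhi 3 instead of 1 Sprr2 genes and 4 instead of 2 Lce3 and Lce6a genes were then lower. So were 6 instead of 3 Lce1 genes. Without either pair, 2 instead of 1 genes of the Sprr1, Sprr3 and Sprr4 kind were lower there. In the difference of RFP differences 1 instead of 6 Lce1 genes was higher without replicates 3 and 4. In the fit of the pair alone, 5 instead of 9 Sprr2 genes and no Lce gene were higher, with 6 Sprr2 genes and 0 Lce genes tested. In the fit of RFP+ MHCIIhi and RFP- MHCIIhi alone, no Lce3 and Lce6a gene was higher and 1 lower, instead of 1 higher and none lower. In the fit of RFP- MHCIIlo and RFP- MHCIIhi alone, 5 instead of 8 Lce1 genes were lower, with 5 tested.

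Signs turned for differences that were not called. With library totals as the scale these were Ivl in RFP- MHCIIlo against RFP- MHCIIhi (-0.087) and the difference of RFP differences for S100a11 (0.031) and S100a4 (0.092). With 1 library left out the values ranged from -0.374 to 0.112 for Sprr4 and from -0.268 to 0.093 for Sprr2i in RFP+ MHCIIlo against RFP+ MHCIIhi. They ranged from -0.038 to 3.471 for Lce1m and from -0.014 to 0.333 for S100a6 in RFP+ MHCIIlo against RFP- MHCIIlo. They ranged from -0.416 to 0.136 for Flg and from -0.568 to 0.029 for Sprr2d in RFP- MHCIIlo against RFP- MHCIIhi, and from -0.304 to 0.039 for S100a4 in the difference of RFP differences. Without RFP+ MHCIIlo replicates 1 and 4, Crnn was at 0.024 in RFP+ MHCIIlo against RFP+ MHCIIhi. Without replicates 3 and 4, Lce1m was at -3.07 and S100a6 at -0.043 in RFP+ MHCIIlo against RFP- MHCIIlo, and Lce1m at -2.82 in the difference of RFP differences.

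With the replicate number as a block (replicate block), 43 members instead of 43 were called between RFP+ and RFP- cells in MHCIIlo and 23 instead of 23 in MHCIIhi. Between the gates 27 instead of 26 were called among RFP+ cells and 41 instead of 40 among RFP- cells. The block ended no call of a named member and added 3: Rptn in the difference of RFP differences (-0.339, adjusted p = 0.04), Hrnr in RFP- MHCIIlo against RFP- MHCIIhi (-0.349, adjusted p = 0.01) and S100a10 in RFP+ MHCIIlo against RFP+ MHCIIhi (-0.254, adjusted p = 0.015). Deviations of same-numbered libraries of different populations correlated at -0.019 to 0.129, over 0.1 in 4 of 24 pairs. Their median was 0.057, against -0.017 for the 72 other pairs. In these deviations, 15 of 16 libraries correlated best with a library of their own number. The labels state no pairing, so the main fit had no block, and it leaves out the small effect shared by number. The 10 members not tested had 2 to 89 reads in all, too few for a test at this depth.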
